A study of Homo sapiens with 6 samples.

Results

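The nuclear-encoded genes of the respiratory chain were examined in RNA-seq data of HEK-293T cells, with and without THUMPD1. Members were taken by symbol: genes beginning with NDUFA, NDUFB, NDUFC, NDUFS, NDUFV, UQCR, COX4I, COX5, COX6, COX7, COX8 or ATP5, together with SDHA, SDHB, SDHC, SDHD and CYC1. Of 256 symbols that matched, 154 pseudogenes and 3 antisense or divergent transcripts were left out, which left 99 of the 58870 genes in the table. These were 37 subunits of complex I, 8 complex I assembly factors with NDUFAF symbols, 4 subunits of complex II, 10 of complex III, 19 each of complexes IV and V (their isoforms, and the inhibitor ATP5IF1, included) and 2 readthrough genes. NDUFA4 and NDUFA4L2 were counted in complex IV despite their symbols, as was the supercomplex factor COX7A2L.

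WT cells were HEK-293T, an immortalized human embryonic kidney line. THUMPD1 KO cells were derived from it with CRISPR-Cas9 and a pair of cotransfected guides, followed by sorting of single cells, so that the KO is 1 clonal line and genotype cannot be told apart from clonal origin. Each genotype had 3 libraries of ribosomal RNA-depleted total RNA, and since no source says that they came from separate cultures, p values measure the spread between these libraries, which may be technical. THUMPD1 guides NAT10, which places N4-acetylcytidine on leucine and serine tRNAs. The WT libraries held 3258, 3315 and 3013 counts of THUMPD1 (replicates 1, 2 and 3, the order used throughout), and the KO libraries held 395, 529 and 353. That is 80.9 ± 3.65 against 11.04 ± 0.918 CPM (counts-per-million, mean ± SD, n = 3), with a log2 fold change of −2.87 and an adjusted p of 3.17e-08.

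The respiratory chain passes electrons from NADH (complex I) or succinate (complex II) through ubiquinone to complex III, then through cytochrome c to complex IV, where oxygen is reduced. Complexes I, III and IV pump protons across the inner mitochondrial membrane, and complex V uses that gradient to make ATP. Complex II is built from nuclear genes alone, whereas the others join nuclear subunits with subunits encoded in mitochondrial DNA. The nuclear factors NRF1 and GABPA are classical activators of these nuclear genes.

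Total counts per library were between 32225646 and 44099898, and mitochondrial genes took between 2.81 and 3.32% of them. All 9 markers listed for HEK-293T and embryonic kidney were at 1 CPM or more (summed level 564 to 601 CPM in WT and 486 to 526 CPM in KO), against 1 of 6 markers of mature kidney tubule, of which 4 were at 0. Of 5 muscle markers none reached 1 CPM, and of 4 leukocyte, 3 fibroblast, 3 endothelial, 2 liver and 3 testis markers 1, 2, 0, 0 and 0 did. The 9 embryonic kidney markers moved both ways. PAX2, LHX1 and NEFL had log2 fold changes of 0.64, 0.59 and 0.31. NEFM, KRT18 and CDH2 had −2.755, −0.53 and −0.18, and KRT8, VIM and SALL4 had −0.32, −0.14 and −0.058. In these bulk libraries fewer cells of a type and less RNA per cell cannot be told apart.

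RefSeq promoters (GRCh38.p14) were matched for 78 of the 99 members, and the 250 bases before each start site were searched on both strands for the NRF1 core GCGCATGC and the GABPA core CCGGAAGT. Overlapping matches of a core were allowed, and neither core contains the other. The NRF1 core stood in 12 members (15.4%), against 4.85% of the promoters of tested genes and 2.81% of all promoters. The GABPA core stood in 10 members (12.8%), against 7.20% and 3.64%. The windows below are those of the 3 members with either core that changed between genotypes (COX6A1, which holds it at 2 places, NDUFS6 and NDUFA6), and of COX5B and SDHD, the only members in which both cores were found. Each is written 5′ to 3′ on the strand of its gene, with the core in capitals.
COX6A1, chr12:120437869-120437928, + strand: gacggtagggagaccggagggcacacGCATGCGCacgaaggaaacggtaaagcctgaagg
COX6A1, chr12:120437913-120437972, + strand: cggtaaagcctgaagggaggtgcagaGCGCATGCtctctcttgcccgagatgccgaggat
NDUFS6, chr5:1801335-1801394, + strand: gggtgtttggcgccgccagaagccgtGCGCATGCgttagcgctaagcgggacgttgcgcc
NDUFA6, chr22:42090905-42090964, − strand: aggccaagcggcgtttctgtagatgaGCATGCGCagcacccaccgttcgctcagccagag
COX5B, chr2:97645900-97645959, + strand: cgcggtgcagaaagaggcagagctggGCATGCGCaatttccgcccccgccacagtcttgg
COX5B, chr2:97645999-97646058, + strand: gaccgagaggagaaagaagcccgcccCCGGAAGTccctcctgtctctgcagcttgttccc
SDHD, chr11:112086737-112086796, + strand: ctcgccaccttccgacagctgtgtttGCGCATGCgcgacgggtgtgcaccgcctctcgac
SDHD, chr11:112086769-112086828, + strand: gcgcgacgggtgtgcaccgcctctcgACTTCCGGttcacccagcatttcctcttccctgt
Capitals mark the NRF1 core in the COX6A1, NDUFS6 and NDUFA6 windows and in the first window of COX5B and SDHD, and the GABPA core in the second window of each. Among members that changed, the NRF1 core was in 2 of 11 promoters of genes that rose and in 1 of 7 of genes that fell, and the GABPA core was in 0 of 11 and 0 of 7. Members without a promoter entry included NDUFC2, NDUFB9, NDUFS5, NDUFB5, NDUFAF6, SDHC, UQCRB, UQCRHL, CYC1, NDUFA4, COX6C, COX4I2, COX7A1, NDUFA4L2, ATP5MC3, ATP5MF, ATP5F1B, ATP5F1D, ATP5MGL and ATP5MF-PTCD1.

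Respiratory chain genes as a group were close to their WT level in THUMPD1 KO cells. Of the 99 members, 90 had at least 1 CPM in at least 3 libraries and were tested, and 22 of these (24.4%) passed an adjusted p of 0.05 in limma-voom (were called), against 26.7% of all 15088 genes tested. Higher calls numbered 14 of 90, against 2066 of 15088 tested genes (13.7%). Lower calls numbered 8 of 90, against 1959 of 15088 (13%). In 38 of 90 members (42.2%) the CPM values of the genotypes did not overlap, against 42.2% over all tested genes. KO lay above WT in 29 (32.2%, against 24.5% over all tested genes) and below it in 9 (10%, against 17.6%). The lowest library was WT replicate 1 for 58 of the 90. The largest change among called members was 1.21-fold. The estimated log2 fold change was under 0.3 in size in 89 of 90 members and under 0.1 in 41. The 95% interval lay within 0.5 of 0 for the same number of members, 89. UQCRHL, a retrogene related to the complex III hinge subunit UQCRH and measured at low counts, was the exception on both counts, with 0.37 (95% interval −0.076 to 0.81). The median size was 0.11 over members and 0.13 over all tested genes.

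**Figure D1:**
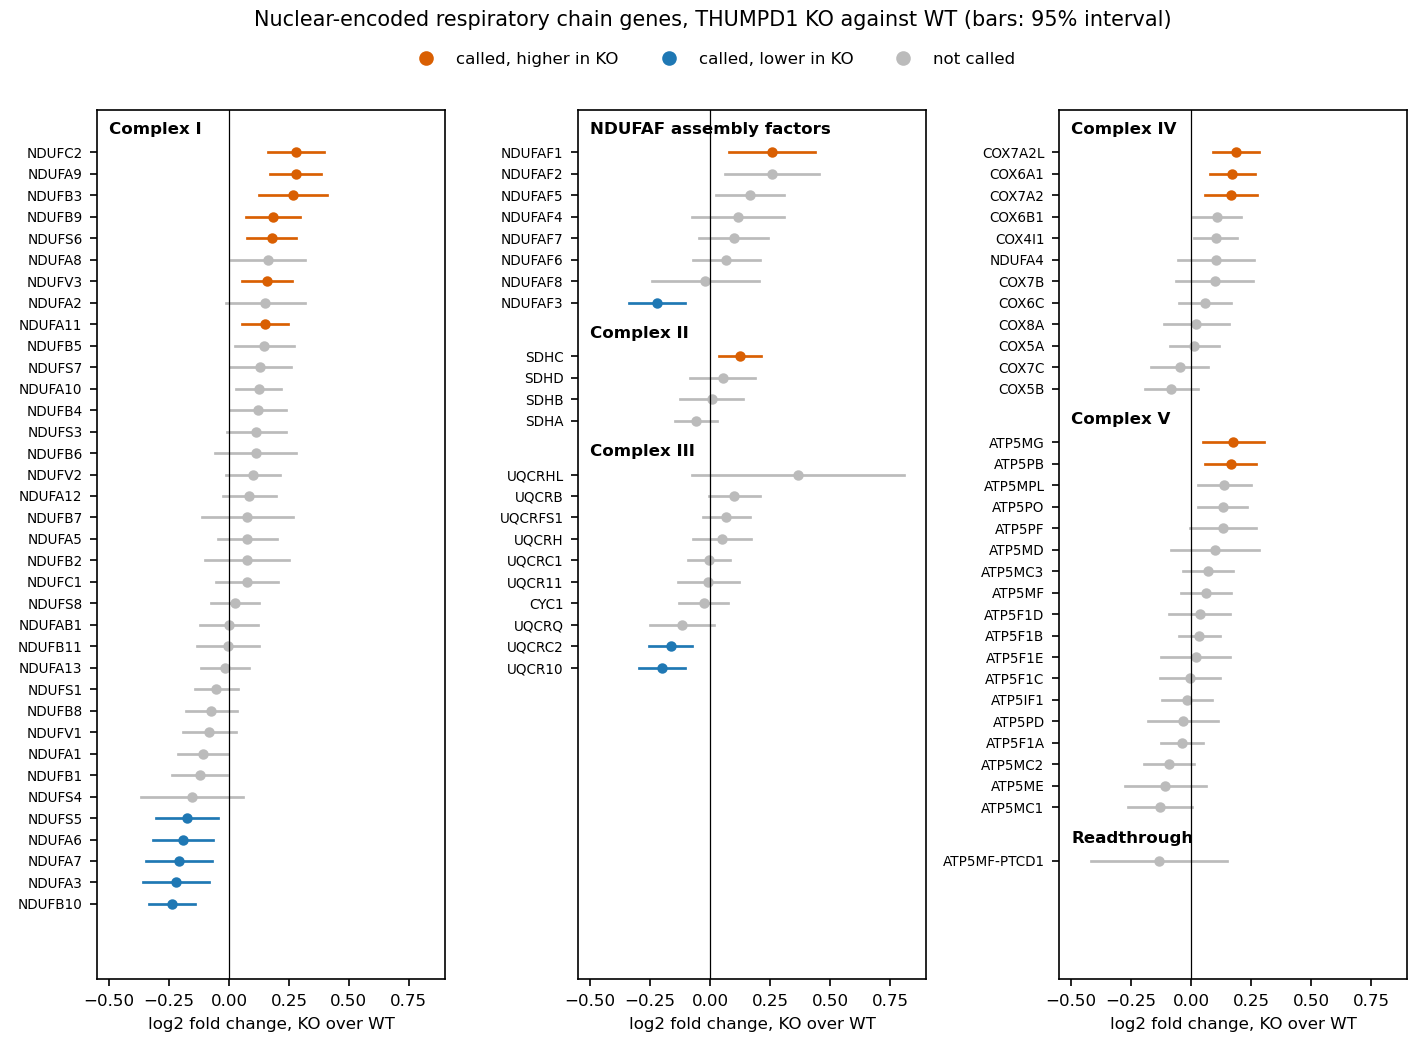
Log2 fold change (KO over WT, horizontal axis) of 89 of the 90 tested members by complex, with points for the estimate and bars for its 95% interval. The 14 members called higher are orange and the 8 called lower are blue. Called estimates lie between −0.24 and 0.28.

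The WT replicate 1 library stood apart from the other WT libraries across these genes. The median deviation of the 90 members from their own mean over the 6 libraries was −0.11 (log2) in WT replicate 1. It was 0.017 and 0.014 in WT replicates 2 and 3, whereas the KO libraries had 0.038, 0.020 and −0.00048. WT replicate 1 was the lowest of the 6 libraries for 58 of 90 members (64.4%), against 24.9% of all tested genes. The deviation was between −0.18 and −0.093 in each complex and in the NDUFAF group, and −0.0067 over all tested genes. With all libraries the members' median log2 fold change was 0.065 (all tested genes 0.016). Without WT replicate 1 it was 0.014 (all tested genes 0.011), and the calls became 8 higher and 13 lower. In that fit 28.1% of all tested genes were called. The split of calls also moved with scaling: with TMM library sizes 7 members were called higher and 8 lower, and the share of tested genes called was 25.8%. For the single genes below, the libraries are named whose omission ended the call. Such fits hold fewer libraries, and 17.65 to 28.1% of all tested genes were called in them.

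The share of tested members called was 32.4% in complex I, against 26.7% of all tested genes. It was 25% in complexes II and IV and in the NDUFAF factors, 20% in III and 11.1% in V. Complex I held 12 of the 22 calls and 37 of the 90 tested members. Of its 37 subunits 7 were higher and 5 lower, with a median log2 fold change of 0.076. Its 7 nuclear core subunits, which carry the flavin and the iron-sulfur clusters, gave no call, with log2 fold changes from −0.082 (NDUFV1, the NADH-binding subunit) to 0.13 (NDUFS7). With the replicate number as a block, NDUFS7 (adjusted p = 0.0350) and the accessory subunit NDUFA10 (log2 fold change 0.12, adjusted p = 0.0267, against 0.0502 without the block) passed. The 12 calls were all among the 30 accessory subunits. With the trend along GC content and length removed, the core subunits NDUFS3 and NDUFS7 passed, and with the block added NDUFS3, NDUFS7 and NDUFS8, 3 of the 7, did. That division was drawn after the values were seen, and the difference between core and accessory subunits was not tested.

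Among the subunits that rose, NDUFA9 (chr12:4649095-4694317, + strand), an accessory subunit of the matrix arm near the ubiquinone site, was at 53.7, 56.7 and 53.5 CPM in WT and 65.9, 67.5 and 64.8 CPM in KO. All KO libraries lay above all WT libraries (log2 fold change 0.28, SE 0.048, adjusted p = 0.00196). NDUFC2 (chr11:78068297-78079862, − strand), a small subunit of the membrane arm, was at 97.2, 108 and 107 CPM in WT and 129.7, 130.0 and 122 CPM in KO. WT replicate 1 was its lowest library, and the genotypes did not overlap (log2 fold change 0.28, SE 0.053, adjusted p = 0.00317). Part of its exons are shared with the readthrough gene NDUFC2-KCTD14, whose counts were between 8 and 36.5 per library. NDUFB3 (chr2:201071433-201085750, + strand), at the far end of the membrane arm, was at 38.8, 45.1 and 44.1 CPM in WT and 51.6, 50.8 and 51.6 CPM in KO. It too was lowest in WT replicate 1, with no overlap (log2 fold change 0.27, SE 0.064, adjusted p = 0.0108). The calls of NDUFA9, NDUFC2 and NDUFB3 held in each of 18 alternative fits.

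The next 2 genes encode subunits of the matrix arm and the membrane arm. NDUFS6 (chr5:1801407-1816048, + strand), the zinc-binding subunit whose promoter is printed above, was at 51.3, 52.9 and 51.2 CPM in WT and 58.3, 57.3 and 60.3 CPM in KO. The genotypes did not overlap (log2 fold change 0.18, SE 0.047, adjusted p = 0.0171). NDUFB9 (chr8:124539101-124580648, + strand), a membrane-arm subunit of the LYR family, was at 68.99, 70.3 and 70.5 CPM in WT and 78.6, 84.4 and 75.7 CPM in KO. KO replicate 2 was highest and the genotypes did not overlap (log2 fold change 0.18, SE 0.051, adjusted p = 0.0218). The adjusted p of NDUFS6 was above 0.05 without WT replicate 3 (0.0641) or KO replicate 3 (0.0686), and that of NDUFB9 without WT replicate 3 (0.0530) or KO replicate 2 (0.0921). Over 18 alternative fits it was 0.00120 to 0.0686 for NDUFS6 and 0.00418 to 0.0921 for NDUFB9.

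NDUFA11 (chr19:5891276-5904006, − strand), a membrane-arm subunit, was at 78.7, 80.4 and 83.9 CPM in WT and 90.7, 89.8 and 90.9 CPM in KO. All KO libraries lay near 90 CPM, above WT (log2 fold change 0.15, SE 0.044, adjusted p = 0.0266). NDUFV3 (chr21:42879644-42913304, + strand), a subunit of the NADH-binding module, was at 52.3, 49.3 and 49.4 CPM in WT and 59.1, 54.5 and 55.4 CPM in KO. KO replicate 1 was the highest library, and the genotypes did not overlap (log2 fold change 0.16, SE 0.048, adjusted p = 0.0304). Both calls were lost in several of the fits with a library left out. That of NDUFA11 did not hold without WT replicate 1 (0.0503), WT replicate 2 (0.0741), KO replicate 1 (0.0527), KO replicate 2 (0.0659) or KO replicate 3 (0.0801), and that of NDUFV3 without WT replicate 2 (0.0951), WT replicate 3 (0.107), KO replicate 1 (0.0861) or KO replicate 3 (0.0660). The adjusted p ranged from 0.000845 to 0.0801 and from 0.00886 to 0.107 over 18 alternative fits.

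Of the 5 complex I subunits that fell, NDUFB10 (chr16:1959538-1961975, + strand), a disulfide-bonded subunit of the membrane arm, was at 106, 112 and 112 CPM in WT and 94.5, 90.8 and 95.95 CPM in KO. All KO libraries lay below all WT libraries (log2 fold change −0.24, SE 0.044, adjusted p = 0.00287), and the call held in each of 18 alternative fits. NDUFA3 (chr19:54102728-54109257, + strand), a small membrane-arm subunit, was at 50.4, 49.2 and 53.3 CPM in WT and 47.7, 40.3 and 43.8 CPM in KO. KO replicate 2 was lowest, and KO replicate 1 lay just below the lowest WT library (log2 fold change −0.22, SE 0.062, adjusted p = 0.0225). NDUFA6 (chr22:42085526-42090884, − strand), an LYR subunit of the matrix arm, was at 45.2, 49.9 and 49.7 CPM in WT and 42.4, 42.3 and 42.2 CPM in KO. Its KO libraries were nearly equal, and WT replicate 1 was the lowest of WT (log2 fold change −0.19, SE 0.057, adjusted p = 0.0296).

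NDUFA7 (chr19:8308768-8321375, − strand), a matrix-arm subunit, was at 43.3, 45.2 and 43.2 CPM in WT and 42.1, 35.7 and 36.5 CPM in KO. KO replicate 1 lay close to WT, while KO replicates 2 and 3 were lower (log2 fold change −0.21, SE 0.062, adjusted p = 0.0300). NDUFS5 (chr1:39026318-39034636, + strand), a subunit on the intermembrane face, was at 47.98, 50.7 and 52.98 CPM in WT and 47.8, 44.01 and 42.8 CPM in KO. KO replicate 1 and WT replicate 1 nearly met (log2 fold change −0.17, SE 0.058, adjusted p = 0.0462). The calls of NDUFA7 and NDUFS5 did not hold without WT replicate 2 (0.0926), WT replicate 3 (0.0683), KO replicate 2 (0.128) or KO replicate 3 (0.107) and without WT replicate 2 (0.109), WT replicate 3 (0.173), KO replicate 2 (0.132) or KO replicate 3 (0.152), respectively. Those of NDUFA3 and NDUFA6 did not hold without WT replicate 3 (0.0913), KO replicate 2 (0.105) or KO replicate 3 (0.0646) and without WT replicate 2 (0.101), WT replicate 3 (0.112), KO replicate 1 (0.0748), KO replicate 2 (0.0729) or KO replicate 3 (0.0835). Over 18 alternative fits the adjusted p was 0.00290 to 0.105 for NDUFA3, 0.00176 to 0.112 for NDUFA6, 0.00332 to 0.128 for NDUFA7 and 0.00269 to 0.173 for NDUFS5.

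The NDUFAF assembly factors build complex I and leave it again. Of 8 tested, 1 rose and 1 fell, with a median log2 fold change of 0.11. NDUFAF3 (chr3:49020459-49023495, + strand), which acts on the ubiquinone-binding module, was at 88.6, 90.2 and 90.1 CPM in WT and 83.5, 72.2 and 77.6 CPM in KO. WT libraries were close together and all above KO (log2 fold change −0.22, SE 0.052, adjusted p = 0.0102), a call that held in all 18 alternative fits. NDUFAF1 (chr15:41387218-41409403, − strand), part of the assembly complex of the membrane arm, was at 11.3, 11.7 and 10.7 CPM in WT and 13.7, 13.9 and 12.4 CPM in KO. The genotypes did not overlap (log2 fold change 0.26, SE 0.082, adjusted p = 0.0371), yet the call did not hold without WT replicate 1 (0.0670), WT replicate 3 (0.117), KO replicate 1 (0.0681) or KO replicate 2 (0.151) and ranged over 0.0172 to 0.151 in 18 alternative fits. NDUFAF2, a late-acting factor, had a similar estimate of 0.26 (95% interval 0.062 to 0.45) that did not pass (adjusted p = 0.0528, and 0.0262 with the replicate block).

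In complex II, 1 of 4 subunits was called. SDHC (chr1:161314381-161363206, + strand), one of the membrane anchors, was at 153, 156 and 155 CPM in WT and 172, 166 and 169.6 CPM in KO. Every KO library lay above every WT library (log2 fold change 0.12, SE 0.040, adjusted p = 0.0421). The call was lost when any one library was left out, with adjusted p values of 0.0614, 0.0957 and 0.122 on omitting a WT library (replicates 1, 2 and 3) and 0.0962, 0.0521 and 0.0964 on omitting a KO library, within a range of 0.0228 to 0.124 over 18 alternative fits. The log2 fold changes of the flavoprotein SDHA, the iron-sulfur protein SDHB and the anchor SDHD were −0.059 (95% interval −0.15 to 0.028), 0.0064 (95% interval −0.13 to 0.14) and 0.052 (95% interval −0.084 to 0.19).

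In complex III, 2 of 10 subunits fell and none rose, and the median log2 fold change was −0.0053. UQCR10 (chr22:29767369-29770413, + strand), one of the smallest subunits, was at 79.2, 83.3 and 80.7 CPM in WT and 72.5, 69.5 and 70.01 CPM in KO. All KO libraries were below all WT libraries (log2 fold change −0.20, SE 0.044, adjusted p = 0.00692), and the call held in all 18 alternative fits. UQCRC2 (chr16:21953288-21983660, + strand), core protein 2, was at 134, 137 and 129.8 CPM in WT and 120.4, 125 and 119.7 CPM in KO. The genotypes were separate (log2 fold change −0.16, SE 0.041, adjusted p = 0.0134), but the call did not hold without WT replicate 2 (0.0575) or KO replicate 3 (0.0561), within 0.00107 to 0.0575 over 18 alternative fits. The partner core protein UQCRC1 had a log2 fold change of −0.0032 (95% interval −0.091 to 0.084). The subunits that carry electrons, the Rieske protein UQCRFS1 and cytochrome c1 (CYC1), had 0.068 (95% interval −0.030 to 0.17) and −0.026 (95% interval −0.13 to 0.076).

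In complex IV, 3 of 12 tested members (NDUFA4 and COX7A2L included) rose and none fell, and the median log2 fold change was 0.10. COX7A2L (chr2:42333546-42425088, − strand), which joins complexes III and IV in supercomplexes, was at 50.5, 49.5 and 49.9 CPM in WT and 58.3, 56.05 and 56.9 CPM in KO. WT libraries were close together and all below KO (log2 fold change 0.19, SE 0.043, adjusted p = 0.00903). Its call held with every library left out but not with the trend along GC content and length removed (adjusted p = 0.0920, range 0.00286 to 0.0920). COX6A1 (chr12:120438090-120440737, + strand), the ubiquitous form of subunit VIa, was at 169, 176 and 175 CPM in WT and 192, 207 and 191 CPM in KO. KO replicate 2 was highest, and the genotypes did not overlap (log2 fold change 0.17, SE 0.042, adjusted p = 0.0125). The COX6A1 call did not hold without KO replicate 2 (0.0554) and ranged over 0.00172 to 0.0554. COX7A2 (chr6:75237675-75250323, − strand), the ubiquitous form of subunit VIIa, was at 65.3, 70.4 and 68.95 CPM in WT and 75.5, 78.98 and 75.03 CPM in KO. WT replicate 1 was lowest and KO lay above WT (log2 fold change 0.17, SE 0.050, adjusted p = 0.0296). That call did not hold without WT replicate 1 (0.0586), WT replicate 3 (0.0657), KO replicate 2 (0.119) or KO replicate 3 (0.0609), with a range of 0.00975 to 0.119 over 18 alternative fits. COX4I1, COX5A and COX5B, larger nuclear subunits, had log2 fold changes of 0.10 (95% interval 0.013 to 0.19), 0.014 (95% interval −0.088 to 0.12) and −0.083 (95% interval −0.19 to 0.028). COX4I1 did not pass (adjusted p = 0.0845), but did with library sizes alone (0.0463), with the trend along GC content and length removed (0.0319) and with that and the replicate block (0.0158). COX6B1, a subunit on the intermembrane face, did not pass either (log2 fold change 0.11, adjusted p = 0.0974) but did in the last 2 of these fits (0.0468 and 0.0224).

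In complex V, 2 of 18 tested members rose and none fell, and the median log2 fold change was 0.035. ATP5PB (chr1:111448864-111462773, + strand), subunit b of the peripheral stalk, was at 187, 205 and 202 CPM in WT and 221, 229 and 216 CPM in KO. WT replicate 1 was lowest, and KO lay above WT (log2 fold change 0.17, SE 0.048, adjusted p = 0.0273). ATP5MG (chr11:118401346-118433278, + strand), subunit g of the membrane part, was at 77.1, 88.2 and 87.1 CPM in WT and 96.7, 94.3 and 94.6 CPM in KO. Again WT replicate 1 was lowest, with no overlap between genotypes (log2 fold change 0.18, SE 0.057, adjusted p = 0.0429). The calls did not hold without WT replicate 1 (0.0592), WT replicate 3 (0.0538), KO replicate 1 (0.0525) or KO replicate 2 (0.0987) for ATP5PB and without WT replicate 1 (0.0803), WT replicate 3 (0.0538), KO replicate 1 (0.102), KO replicate 2 (0.101) or KO replicate 3 (0.0970) for ATP5MG, within 0.0103 to 0.106 and 0.0216 to 0.102 over 18 alternative fits. With the replicate number as a block 5 members of complex V were called, the others being ATP5MPL (log2 fold change 0.14, adjusted p = 0.0386), ATP5PO (0.13, adjusted p = 0.0434) and ATP5MC1 (−0.13, adjusted p = 0.0420). In that fit 35.1% of all tested genes and 28 members were called. The catalytic subunits ATP5F1A and ATP5F1B had log2 fold changes of −0.039 (95% interval −0.13 to 0.048) and 0.035 (95% interval −0.050 to 0.12), and the inhibitor ATP5IF1 had −0.016 (95% interval −0.12 to 0.089).

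**Figure D2:**
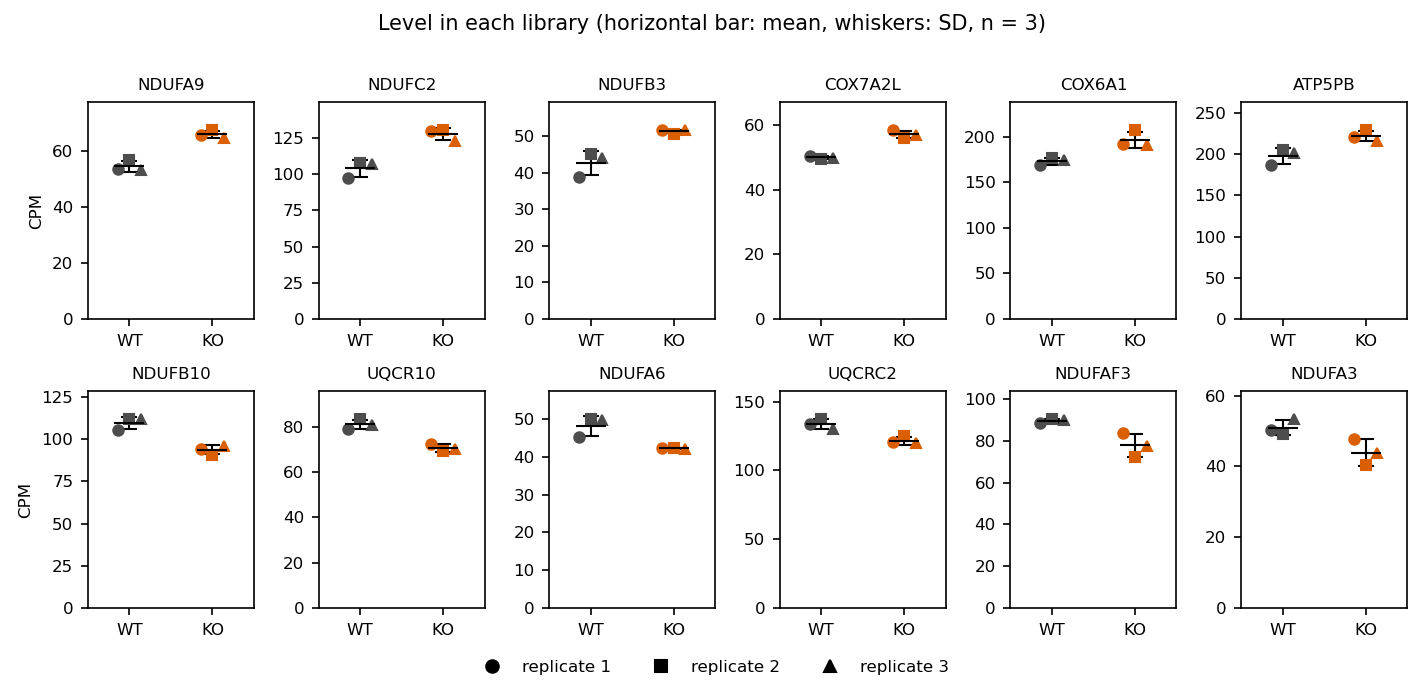
CPM (vertical axis, from 0) in each library for 12 of the called members, with WT grey and KO orange, a symbol per replicate number, and the mean and SD (n = 3) as bars. The upper row shows members that rose and the lower row members that fell. In none do the genotypes overlap, and in NDUFC2, NDUFB3 and ATP5PB, among others, WT replicate 1 (circle) is the lowest WT library.

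The summed level of all 99 members was 7396, 7804 and 7805 CPM in WT and 8038, 7834 and 7762 CPM in KO. The mean was 7668 ± 236 CPM in WT and 7878 ± 143 CPM in KO (SD, n = 3), 2.73% higher, and the genotypes overlapped. Together these genes made up between 0.740 and 0.804% of the counts. Complex I subunits summed to 2227, 2315 and 2317 CPM in WT and 2405, 2316 and 2317 CPM in KO, and complex III to 898, 962 and 946 CPM in WT and 938, 928 and 920.2 CPM in KO. In both the genotypes overlapped. Complex II summed to 402, 417 and 413 CPM in WT and 430.2, 422 and 423 CPM in KO. Its genotypes did not overlap, but they did with TMM-scaled library sizes (398, 424 and 421 CPM in WT and 421, 422 and 421 CPM in KO) and without SDHC, its most abundant member, when the log2 ratio of the means went from 0.050 to −0.0015. Complex IV summed to 1205, 1276 and 1291 CPM in WT and 1349, 1332 and 1290 CPM in KO, and complex V to 2431, 2585 and 2593 CPM in WT and 2672, 2597 and 2573 CPM in KO. Both were lowest in WT replicate 1 and overlapped. The NDUFAF factors summed to 219.5, 238 and 233 CPM in WT and 234, 229 and 225 CPM in KO, again with overlap. Without NDUFS1, its most abundant member, complex I no longer overlapped and was 3.10% higher in KO. The gap was narrow, with 2046, 2137 and 2143 CPM in WT and 2229, 2146 and 2148 CPM in KO. Without COX7C, its most abundant member, complex IV no longer overlapped and was 7.08% higher in KO. It had 1001, 1047 and 1057 CPM in WT and 1134, 1110 and 1080 CPM in KO. WT replicate 1 was the lowest library in both.

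Levels of different genes were compared per length (counts per kilobase of the canonical transcript scaled to the same sum as CPM in each library, mean of 6 libraries), since CPM favors long transcripts. The median was highest in complex IV (231) and complex V (147), followed by complex I (103), complex III (90.5), complex II (82.4) and the NDUFAF factors (20.3). Within complexes the highest and lowest tested genes differed widely. In complex I NDUFA13 was highest (249) and NDUFA9 lowest (11.4), a ratio of 21.8. In complex II SDHC (196) was above SDHA (78.6) by 2.49-fold. UQCRH (299) and UQCRHL (13.5) were the ends of complex III, COX7C (550) and COX7A2L (37.2) those of complex IV, and ATP5F1B (551) and ATP5F1E (44.8) those of complex V. NDUFAF3 (147) and NDUFAF5 (6.63) were the ends of the assembly factors. These per-length levels depend on the length used. With the union of annotated exons the medians were 104 for complex IV, 78.5 for V, 65.4 for III, 49.3 for II, 40.6 for I and 10.7 for the NDUFAF factors. The highest genes became NDUFA1, UQCR10 and COX8A in complexes I, III and IV and the lowest NDUFB9 and ATP5MG in complexes I and V.

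Several subunits of complexes IV and V come as isoforms from separate genes. The ubiquitous isoforms were the ones expressed. COX4I1, COX6A1, COX6B1, COX7A2, COX7B and COX8A were at 146, 173, 79.8, 68.2, 104 and 80.8 CPM (WT means). The lung-enriched COX4I2, the muscle isoforms COX6A2 and COX7A1 and the testis isoform COX7B2 had 0 counts in every library. A count of 0 allows up to 3 counts, or 0.0680 to 0.0931 CPM depending on the library. COX8C had 1 count in KO replicate 1 and none elsewhere. The testis isoform COX6B2 had between 2 and 10 counts per library in both genotypes, and NDUFA4L2, the hypoxia-induced relative of NDUFA4, had 18, 7 and 9 counts in WT and 11, 8 and 8 in KO. ATP5MGL, a relative of ATP5MG, had 10, 17 and 12 against 7, 19 and 11 counts. These 8 genes and NDUFC2-KCTD14 were the 9 members below the filter, and they were not tested.

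The c-ring of complex V is encoded by 3 genes that give the same mature protein. Per length ATP5MC2 was the highest (412), followed by ATP5MC1 (116) and ATP5MC3 (115), with union exon lengths giving 89.3, 38.2 and 102 in the same order. None passed in the comparison of genotypes, with a log2 fold change of −0.091 (95% interval −0.20 to 0.014) for ATP5MC2, −0.13 (95% interval −0.26 to 0.0041) for ATP5MC1 and 0.071 (95% interval −0.032 to 0.17) for ATP5MC3. The adjusted p of ATP5MC1 was 0.139 with all libraries and 0.0166 without WT replicate 1, and that of ATP5MC2 was 0.180 and 0.0365 without KO replicate 1. Over 18 alternative fits they ranged over 0.0166 to 0.370 and 0.0365 to 0.584.

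Of the 8 members that fell, 3 sat in chromosomal neighborhoods that were lower as a whole. Among the 20 nearest tested genes (10 on each side), the median log2 fold change was −0.35 around NDUFB10 on chromosome 16, where 15 of 20 were called lower. It was −0.33 around UQCR10 (14 of 20) and −0.27 around NDUFA6 (11 of 20), both on chromosome 22, where the median over 373 tested genes was −0.34. No other tested member had a neighborhood median under −0.12. The median of UQCRC2, also on chromosome 16, was −0.022, with 3 of 20 neighbors called lower. Among members that rose, the highest neighborhood median was 0.15, around ATP5PB. The part of these neighborhoods in the members' values was not tested. Over the 84 tested members outside chromosomes 16 and 22 the median log2 fold change was 0.070.

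Other genes of the pathway were counted from lists. Of 13 subunits encoded in mitochondrial DNA, 5 rose and 1, MT-CYB, fell. With TMM library sizes 3 rose (MT-ND1, MT-ND2 and MT-ND3) and none fell, and over the 18 alternative fits 3 to 7 rose and 0 to 1 fell. With edgeR and DESeq2 the gene that fell was MT-CO1, and MT-CYB was not called. The log2 fold change of MT-CO1 was −0.095 in the main fit (adjusted p = 0.330) and −0.14 with TMM library sizes (adjusted p = 0.0903). Several of these transcripts are among the most abundant, and quantile normalization gives genes of equal rank equal values. MT-CO3 and MT-ND4 held the same rank in all 6 libraries (8 and 9), and MT-CO2 had the same set of ranks in both genotypes, so that their fitted change was 0 or nearly 0 by construction. With TMM library sizes their log2 fold changes were 0.041 (adjusted p = 0.652), 0.11 (adjusted p = 0.219) and −0.0043 (adjusted p = 0.9704), and that of MT-CYB was −0.10 (adjusted p = 0.186). These 4 and MT-CO1 were named after their values were seen. MT-ND3 was at 418, 382 and 352 CPM in WT and 569, 566 and 526 CPM in KO (log2 fold change 0.53, adjusted p = 0.000289), and MT-ND2 (log2 fold change 0.38, adjusted p = 0.000896) and MT-ND1 (log2 fold change 0.24, adjusted p = 0.00493) also rose. All 3 encode complex I subunits. Of 20 tested electron carriers and enzymes that feed ubiquinone or make it, 4 fell and none rose (median −0.13). The ubiquinone synthesis genes COQ7 (log2 fold change −0.55, adjusted p = 5.56e-05) and PDSS2 (log2 fold change −0.30, adjusted p = 0.0116) and the proline dehydrogenase gene PRODH (log2 fold change −1.17, adjusted p = 0.00340) were among them. COQ7 lies on chromosome 16 and PRODH on chromosome 22. PRODH was near the filter of 1 CPM, at 2.16, 1.74 and 1.985 CPM in WT and 1.29, 0.680 and 1.02 CPM in KO. It was not tested in the fit that required 1 CPM in all 6 libraries.

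Of 48 assembly factors without an NDUFAF symbol, 12 rose and 3 fell (median 0.082). The complex III factor UQCC2 (log2 fold change 0.36, adjusted p = 0.000595), the complex IV factor COX19 (log2 fold change 0.37, adjusted p = 0.00300) and the complex V factor ATPAF1 (log2 fold change 0.19, adjusted p = 0.00538) were higher. Of 20 factors of mitochondrial transcription and biogenesis, 2 rose and 2 fell (median 0.071). The coactivator PPARGC1A fell from 7.87 ± 0.557 to 5.41 ± 0.127 CPM (n = 3, log2 fold change −0.58, adjusted p = 0.00132), while the mitochondrial DNA-binding factor TFAM (log2 fold change 0.17, adjusted p = 0.00941) and the GABP subunit GABPB2 (log2 fold change 0.25, adjusted p = 0.0191) rose. The GABPB2 call did not hold without WT replicates 2 (0.0785) and 3 (0.0565) or KO replicates 1 (0.0527) and 2 (0.0766), each left out in turn, and its adjusted p ranged over 0.00261 to 0.0785. Of 18 genes of the tricarboxylic acid cycle and pyruvate dehydrogenase, none rose and 2 fell (median −0.0049). IDH3G (log2 fold change −0.24, adjusted p = 0.00425) was among them. Apart from MT-CYB, the calls of the other genes named from these lists held at an adjusted p of 0.05. They did so in each of the 18 alternative fits in which the genes were tested. At a threshold of 0.01 PDSS2, GABPB2 and MT-CYB (adjusted p = 0.0118) did not pass. The counts in these lists stand beside the 13.7% higher and 13% lower over all tested genes.

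Members were shorter than other genes and differed in codon content. The median coding sequence of tested members had 143 codons, against 477 over 12609 tested genes with a coding sequence. Leucine made up a median of 9.23% of their codons, against 9.75%, and serine 5.77%, against 7.57%. Of leucine codons, UUG, CUA, CUU and UUA together made up a median of 50.0% in members (quartiles 29.8 and 61.5%), against 41.7% (23.1 and 62.0%), so that the quartile ranges largely overlapped.

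The positions of 14 of the 22 called genes, and of 61 of all members, overlap another annotated gene. Examples are NDUFA7 with RPS28, NDUFB9 with MTSS1 and TATDN1, NDUFAF3 with DALRD3, and ATP5PB with WDR77, all on the opposite strand. Other called genes, NDUFA9 and COX6A1 among them, overlap genes annotated on the same strand. The libraries were made with a stranded kit, but the strand setting of the RSEM counting is not given in the sources used here. Without it reads of partners on the opposite strand could not be told apart. For partners on the same strand the setting would make no difference. NDUFB10, NDUFS6, NDUFV3, NDUFS5, SDHC, UQCRC2, COX7A2L and COX7A2 overlap none. Pseudogenes of 44 members are listed in the table, and their counts came to 0.0985% of the members' counts. Changes of setting ended further calls. TMM library sizes and DESeq2 each ended 7 (ATP5MG, ATP5PB, COX7A2, NDUFA11, NDUFAF1, NDUFV3 and SDHC), and the edgeR quasi-likelihood test ended 6 (ATP5MG, ATP5PB, COX6A1, COX7A2, NDUFAF1 and SDHC). Removing the trend along GC content and length ended 6 (ATP5MG, ATP5PB, COX7A2L, NDUFA7, NDUFS5 and SDHC), and omitting the filter ended 11. In all, 6 calls held in all 18 alternative fits, those of NDUFA9, NDUFB10, NDUFC2, NDUFB3, NDUFAF3 and UQCR10. These fits were read at an adjusted p of 0.05. At 0.01 with the settings first given, 5 calls remained, those of NDUFA9, NDUFB10, NDUFC2, UQCR10 and COX7A2L, so that NDUFB3 (0.0108) and NDUFAF3 (0.0102) did not pass there.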

How the data were processed

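RNA-seq of 3 WT and 3 THUMPD1 KO libraries of HEK-293T cells was used. Reads were mapped by the authors to GRCh38 with STAR and deposited as RSEM expected counts per gene and library, neither scaled nor pooled. The methods name GENCODE 46, and tool versions are not given in the sources used here. Groups and replicate numbers came from the sample labels. Positions and lengths came from GENCODE 44 on GRCh38, which held all 99 members. Older table symbols were kept, so ATP5MPL and ATP5MD stand for ATP5MJ and ATP5MK.

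The filter kept 15088 genes that reached 1 CPM in 3 or more of the 6 libraries, with 99.7 to 99.8% of counts. The study does not state the number of libraries. After quantile normalization, limma-voom (limma 3.58.1 in R 4.3.3) was run on genotype alone, two-sided, with Benjamini-Hochberg adjustment over all genes tested and a threshold of 0.05 ("called"). CPM was computed from total counts. The script was tested on simulated data. At these depths counting error is small for most members above the filter, and intervals cover the spread between libraries. UQCRHL, with 73.0 to 112 counts per library, is an exception. The limit for a count of 0 covers counting error only.

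Members, gene lists and tests were chosen with earlier results of these data known. The rule for naming was all called members, isoform pairs, the highest and lowest member of each complex per length, members below the filter, and up to 3 called genes of each other list. UQCRHL as the widest interval, the larger or catalytic subunits, and genes called only in other fits were named after their values were seen. Single values of some listed genes are not reported here.

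Replicate numbers are shared between genotypes. Deviations from genotype means over 12957 genes correlated at 0.236, 0.174 and 0.137 for equal numbers, and between −0.186 and 0.0832 for different ones. Libraries of equal number were treated as pairs only where the block is named. The main fit and the fits with a library left out had no block, so their calls, SEs and intervals ignore the pairing. The study names no block, and the block was an alternative to the main fit. The other alternatives were TMM library sizes, library sizes alone, other CPM filters or none, edgeR 4.0.16 (quasi-likelihood) and DESeq2 1.42.0 on rounded counts, quality weights, removal of GC content and length trends (with or without the block), pseudogene counts added to parents, and each library left out, 18 fits in all. A threshold of 0.01 in the unblocked fit was read besides. Leucine and serine shares came from GENCODE 44 coding sequences, not from RefSeq proteins as first planned.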

Additional observations from a re-analysis of the deposited data

How the results depend on the processing

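The 22 called members kept their sign in every alternative run. Of the values recomputed for groups of members, 80 were counted as moved and 238 were not. The allowance was wide. The 238 include totals of 15 called members with TMM, 30 with quality weights and 32 with trend removal and the replicate block. In the same order, 25.8, 36.5 and 36.9% of all tested genes were called in these fits. Called members numbered 22 (14 higher, 8 lower). Higher calls were 7 with TMM, 8 with edgeR, 7 with DESeq2, and 24 with GC content and length trends removed and the replicate block. With no CPM filter 11 were called (7 higher, 4 lower), and the number of genes over which p was adjusted was larger by construction. In that fit 11.6% of tested members and 10.1% of all tested genes were called. At an adjusted p of 0.01, 5 were called (3 higher, 2 lower). With quality weights 15 were lower. For the rest the cause was not tested.

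In complex I 12 became 5 with no filter and 3 at 0.01. The 2 NDUFAF calls became 1 with TMM, no filter, edgeR or DESeq2 and 0 at 0.01. The call in complex II became 0 in TMM, no filter, edgeR, DESeq2, trend removal and at 0.01. In complex III 2 became 4 with trend removal and the block and 1 at 0.01. In complex IV 3 became 1 with edgeR, 5 with trend removal and the block and 1 at 0.01. In complex V 2 became 0 with TMM, edgeR, DESeq2 or at 0.01, 1 with no filter or trend removal, 4 with quality weights and 5 with the replicate block. The block kept all 22 calls and added 6. With quality weights the median log2 fold change was 0.017 in complex I, −0.029 in II and 0.035 in IV. The log2 ratio of summed levels was 0.024 in complex II with TMM and −0.0015 without SDHC, and 0.11 for NDUFAF factors without NDUFAF3.

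Leaving out 1 library gave 10 to 21 called members, 6 to 11 higher and 3 to 13 lower. The share of tested members called was 11.1 to 23.3% in these fits. That of all tested genes was 17.65% (without KO replicate 2) to 28.1% (without WT replicate 1). The counts were 5 to 13 in complex I, 1 to 2 for NDUFAF factors, 0 in II, 1 to 3 in III, 1 to 3 in IV and 0 to 2 in V. The medians were 0.019 to 0.11 in complex I, −0.033 to 0.068 in II and 0.044 to 0.11 in IV, each lowest without WT replicate 1.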
